A study of Mus musculus with 6 samples.

Results

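The genes described here encode the B cell receptor complex and the signalling proteins nearest to it: Cd79a, Cd79b, Syk, Lyn, Btk, Blnk, Plcg2, Pik3ap1 and Prkcb. They were chosen by symbol, as the probe sets that the platform annotation pairs with these names on an Affymetrix whole-genome mouse array, and 8 of the 9 genes were found, with 14 probe sets among the 34958 that carry 1 symbol. Lyn had no probe set under its name in that annotation and is not analysed here. The series holds 18194 named genes, of which 11731 were above a signal floor on at least 2 of the 6 arrays, and all 8 found genes were among them.

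The cells were A20, a B lymphoma line of BALB/c mouse origin, and every group was the same line in the same growth medium. There were 6 conditions: cells with DMSO and no stimulus, here called untreated; cells with SP600125 for 24 h; cells with TGF-β for 12 h or for 24 h, with DMSO; and cells with TGF-β and SP600125 together for 12 h or for 24 h. SP600125 is an inhibitor of the JNK kinases, and the design asks which TGF-β responses of these cells depend on JNK. Each condition had 1 array and no condition was repeated, so single pairs of arrays have no replicate check and the number of arrays limits the precision. SP600125 was present for 12 h on the array with 12 h of TGF-β and for 24 h on the other drug arrays. The SP600125 term below pools these times. Within the drug arm, 12 h of TGF-β cannot be told apart from the shorter drug time. Drug pairs compared between times carry the same limit. One transformed line stands for B cells here, and in such bulk RNA fewer expressing cells and less RNA per cell cannot be told apart.

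CD79A and CD79B are the signalling chains that sit beside membrane immunoglobulin. When antigen clusters the receptor, Src family kinases such as LYN phosphorylate the tyrosine motifs in the tails of both chains, and SYK binds there and is activated. SYK phosphorylates the adaptor BLNK, which brings BTK and the phospholipase PLCG2 together, and PLCG2 makes the messengers that release calcium and activate protein kinase C beta, the product of Prkcb. PIK3AP1, also called BCAP, is an adaptor that links the receptor to phosphoinositide 3-kinase. In B cells this pathway sets survival, activation and tolerance.

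Signals are linear intensities scaled to a common target on each array, and any signal under 74.2 (the 50th percentile) was raised to this floor before taking log2. Effects come from an additive limma model with 12 h of TGF-β, 24 h of TGF-β and SP600125 as terms over the 6 arrays, and the call threshold was 0.05 for the p adjusted by Benjamini-Hochberg over all 11731 genes. With 2 residual degrees of freedom, the error is how far arrays depart from an additive pattern, and p-values reflect that spread alone, not that between cultures. Pairs that agree make this error small, so counts of pairs in the same direction are description and not added support. With 1 array left out, 2 of 48 fits of the called effects still passed, both for Pik3ap1 with SP600125. Errors after ± are standard errors of that model. "Rose" and "fell" are used of called effects only. Each gene is represented by its brightest probe set unless another is named.

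The array of 24 h TGF-β with SP600125 stood apart, with an 18S ribosomal RNA signal of 5878.2 against 506.5 to 881.5 on the others. The 3′/5′ signal ratio of the actin control probe sets was 1.51, 1.32 and 1.89 on the arrays with SP600125 and 0, 12 and 24 h of TGF-β, and 1.25, 1.29 and 1.25 on those without. No 2 arrays held identical values. B cell markers were present, with 6 of 6 found markers above the floor on every array. Of 7 T cell markers 3 were above the floor on at least 2 arrays, Cd3d, Cd3g and Cd4 were under it on all 6, and the summed signal of the list lay between 193.6 and 507.7. The summed signal of the B cell list lay between 34905.2 and 60043.9. Summed signals were 663.3 to 1061.5 for 6 myeloid markers, with Itgam and Cd14 under the floor throughout, 194.7 to 465.5 for 5 fibroblast markers, with Col1a1 under it, and 249.9 to 386.4 for 3 erythroid and platelet markers, with Hba-a1 under it.

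The promoters shown are those of the genes with a called effect in any term of the additive model at their brightest probe set. Of the 9 genes, 7 had an entry in the RefSeq promoter table (build GRCm38.p6), with 2 starts for Syk; Cd79b and Lyn had none. The 250 bases before the start are printed 5′ to 3′ on the gene's own strand, and capitals mark matches, on either strand, to ATGCAAAT (the octamer bound by Oct factors), TGANTCA (the AP-1 site), CAGAC (the core of Smad-bound CAGA elements) or AGGAAGT (an Ets site).
Pik3ap1, chr19:41385103-41385352, minus strand: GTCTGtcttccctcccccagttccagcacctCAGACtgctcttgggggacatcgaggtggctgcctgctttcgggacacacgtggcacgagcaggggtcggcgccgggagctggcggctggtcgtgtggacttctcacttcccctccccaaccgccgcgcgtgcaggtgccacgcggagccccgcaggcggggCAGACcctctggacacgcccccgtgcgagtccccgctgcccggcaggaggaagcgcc
Plcg2, chr8:117498025-117498274, plus strand: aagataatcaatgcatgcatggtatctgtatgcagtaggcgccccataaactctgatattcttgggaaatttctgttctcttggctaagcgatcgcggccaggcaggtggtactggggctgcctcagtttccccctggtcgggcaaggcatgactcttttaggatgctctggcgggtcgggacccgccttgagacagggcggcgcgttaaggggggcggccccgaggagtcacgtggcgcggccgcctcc
Cd79a, chr7:24897247-24897496, plus strand: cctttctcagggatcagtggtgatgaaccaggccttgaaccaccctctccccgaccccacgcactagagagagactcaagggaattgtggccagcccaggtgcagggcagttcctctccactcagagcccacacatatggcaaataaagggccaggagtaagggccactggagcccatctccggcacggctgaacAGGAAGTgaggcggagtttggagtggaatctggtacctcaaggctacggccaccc
Blnk, chr19:40994222-40994471, minus strand: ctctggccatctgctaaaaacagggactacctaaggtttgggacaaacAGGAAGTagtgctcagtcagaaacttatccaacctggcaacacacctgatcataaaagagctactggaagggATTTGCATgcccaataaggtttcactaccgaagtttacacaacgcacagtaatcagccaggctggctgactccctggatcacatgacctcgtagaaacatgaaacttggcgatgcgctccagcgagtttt
Prkcb, chr7:122288875-122289124, plus strand: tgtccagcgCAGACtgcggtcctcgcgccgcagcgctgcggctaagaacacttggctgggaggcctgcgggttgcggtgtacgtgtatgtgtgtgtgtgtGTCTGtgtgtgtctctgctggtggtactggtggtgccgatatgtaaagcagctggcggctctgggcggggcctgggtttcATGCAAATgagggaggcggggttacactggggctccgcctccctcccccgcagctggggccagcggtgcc

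The octamer was found in the Blnk and Prkcb windows, and 1.6% of 32851 promoters in the table hold it in the same window. CAGAC was found 3 times for Pik3ap1, 2 times for Prkcb and 1 time at 1 of the Syk starts, and 42.2% of all promoters hold it. The Ets site was found for Cd79a and Blnk and is held by 7.69% of all promoters. The AP-1 letters are held by 6.75% of all promoters and by 0 of the 8 windows of these genes. The windows for Plcg2 and Btk held none of the 4 motifs. The motifs do not overlap each other in these windows, and a match describes the letters only. The starts of Blnk and Pik3ap1 lie 391 kb apart on the same strand of chromosome 19, and their effects had opposite signs in each of the 3 terms of the additive model.

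**Figure D1:**
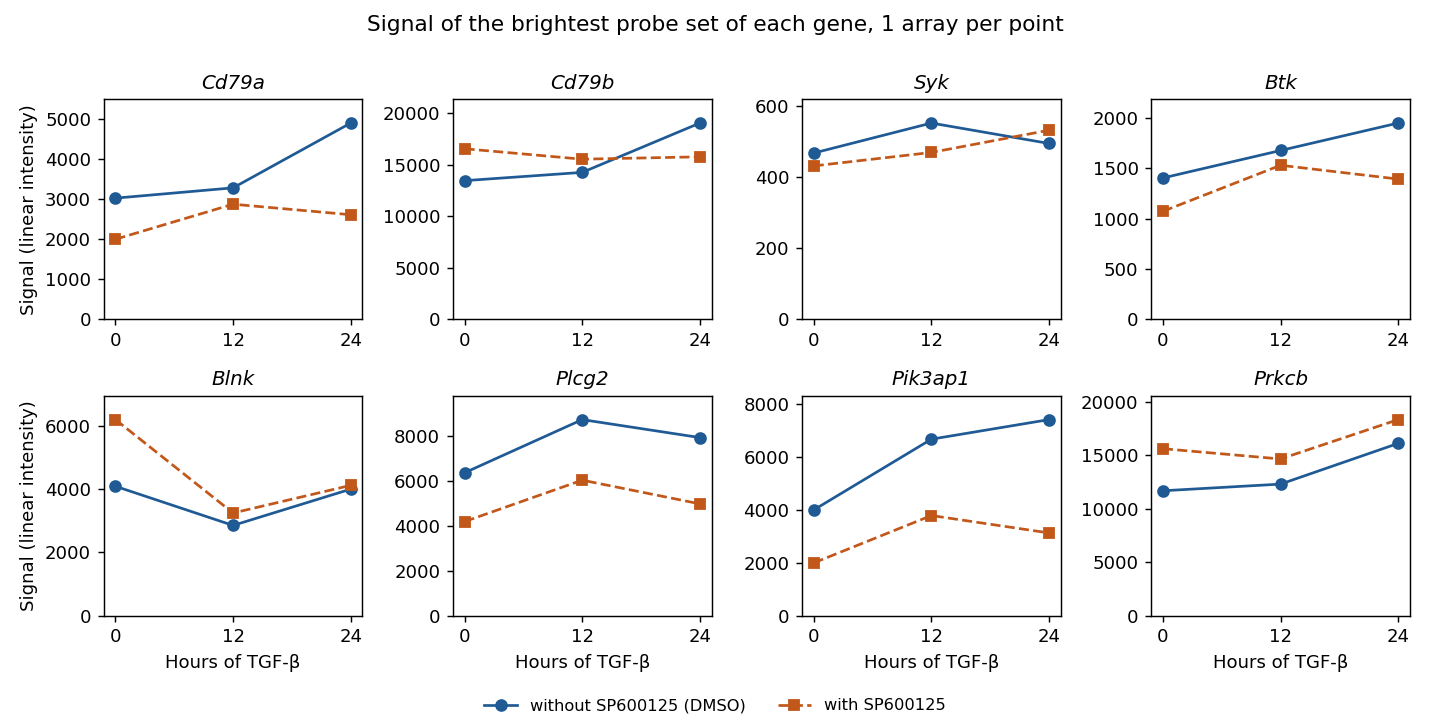
Linear signal (y axis, from 0) against hours of TGF-β (x axis) for the brightest probe set of each gene; circles and solid lines are arrays without SP600125, squares and dashed lines arrays with it, 1 array per point and no error bar. The dashed line lies below the solid line at every time for Pik3ap1, Plcg2, Cd79a and Btk, and above it for Prkcb and Blnk; Pik3ap1 spans 1996.2 to 7396.5.

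With SP600125, 3 of the 8 genes fell and 0 rose. Pik3ap1, the phosphoinositide 3-kinase adaptor, fell by 1.02 ± 0.10 on the log2 scale, Plcg2, the phospholipase, fell by 0.60 ± 0.078, and Cd79a, a signalling chain of the receptor itself, fell by 0.57 ± 0.13. Btk, Blnk, Prkcb, Cd79b and Syk did not pass. Of all genes tested 7.68% were called, 3.69% lower and 3.99% higher. The median effect was −0.21 over the 8 genes and 0.042 over all genes. After median scaling the calls over all genes went from 468 up and 433 down to 349 and 681, and 3 of the 8 genes were again called lower.

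Pik3ap1 had a signal of 3992.6 in untreated cells and 1996.2 with SP600125, 6658.2 at 12 h of TGF-β and 3780.8 with both, and 7396.5 at 24 h and 3124.6 with both. Every array with the drug was thus below every array without it, and the groups did not overlap. The share of all genes that separate in this way was not computed, so for Pik3ap1, Plcg2 and Cd79a the separation is description only. It was 2.00-fold, 1.76-fold and 2.37-fold lower in the pairs at 0, 12 and 24 h. The limma adjusted p was 0.00157, with the effect lower in 3 of 3 pairs and a 95% interval from −1.25 to −0.79. Without the array of 24 h TGF-β with SP600125 the effect was −0.91, with a limma adjusted p of 0.205.

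Plcg2 had signals of 6382.7, 8752.6 and 7951.2 without the drug at 0, 12 and 24 h of TGF-β. With SP600125 they were 4204.5, 6051.5 and 4994.9. The highest array with the drug lay below the lowest without it. The pair differences were −0.60, −0.53 and −0.67, which is the narrowest range of the 3 genes that fell. The limma adjusted p was 0.00526 with a 95% interval from −0.78 to −0.42, and without the array of high 18S signal the effect was −0.57 with an adjusted p of 0.224.

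Cd79a had signals of 3027.9, 3285.3 and 4905.0 without the drug at the same times. With it they were 2000.8, 2876.6 and 2613.5. Here too the groups did not overlap, but the gap at 12 h was small: the pair differences were −0.60, −0.19 and −0.91. The limma adjusted p was 0.0418 with a 95% interval from −0.87 to −0.26, and without the array of high 18S signal the effect was −0.39 with an adjusted p of 0.305. Its partner chain Cd79b had 13467.9, 14271.5 and 19064.8 without the drug and 16567.2, 15552.8 and 15784.3 with it, so the arrays overlapped. The drug effect on Cd79b was 0.050 ± 0.11, with a 95% interval from −0.21 to 0.31, and was −0.030 after median scaling. The interval for Cd79a and that for Cd79b do not overlap, but the difference between the chains was not tested.

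Btk, the Tec family kinase that activates PLCG2, had signals of 1405.1, 1678.1 and 1951.1 without the drug and 1073.6, 1531.2 and 1394.1 with it. Its effect was −0.34 ± 0.11, lower in 3 of 3 pairs, and the limma adjusted p of 0.114 missed the threshold. Prkcb went the other way, with 11694.7, 12316.5 and 16123.5 without the drug and 15627.7, 14666.8 and 18347.8 with it. Its effect was 0.29 ± 0.081, higher in 3 of 3 pairs, with a limma adjusted p of 0.0739. It passed under quantile normalization, at 0.0412, and with log2(signal + 16), at 0.037. Blnk, the adaptor, had 4087.7, 2853.0 and 3998.1 without the drug and 6191.7, 3244.8 and 4116.7 with it, and the pair difference shrank from 0.60 at 0 h to 0.19 and 0.042 at 12 h and 24 h. Its effect was 0.28 ± 0.11 with a limma adjusted p of 0.193. Syk, the kinase that binds the receptor tails, had signals between 431.9 and 552.6 on all arrays and an effect of −0.082 ± 0.16, with a 95% interval from −0.46 to 0.30.

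Values that moved with the drug beside these genes were other B cell genes and the actin 3′/5′ ratio given above, which differed little at 12 h. The GAPDH 3′/5′ ratio at 0, 12 and 24 h of TGF-β was 0.88, 0.80 and 0.98 with the drug. Without it the ratio was 0.79, 0.78 and 0.78. Of the 6 B cell markers found, which include Cd79a and Cd79b, 4 fell with SP600125 and 0 rose, with a median effect of −0.76. Those that fell were Ms4a1, Cd22, Ptprc and Cd79a itself, so the list is not independent of the genes described here. The summed signal of that list was 50303.7, 52518.8 and 60043.9 without the drug and 34905.2, 36740.0 and 36807.6 with it. The part of these in the results was not tested. In the pairs at 0 h and 12 h, which do not use the array of high 18S signal, Pik3ap1, Plcg2, Cd79a and Btk were lower and Prkcb and Blnk higher. At 12 h the log2 differences were −0.82, −0.53, −0.19 and −0.13 for the former and 0.25 and 0.19 for the latter. At 0 h the actin ratio too was higher with the drug, 1.51 against 1.25.

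**Figure D2:**
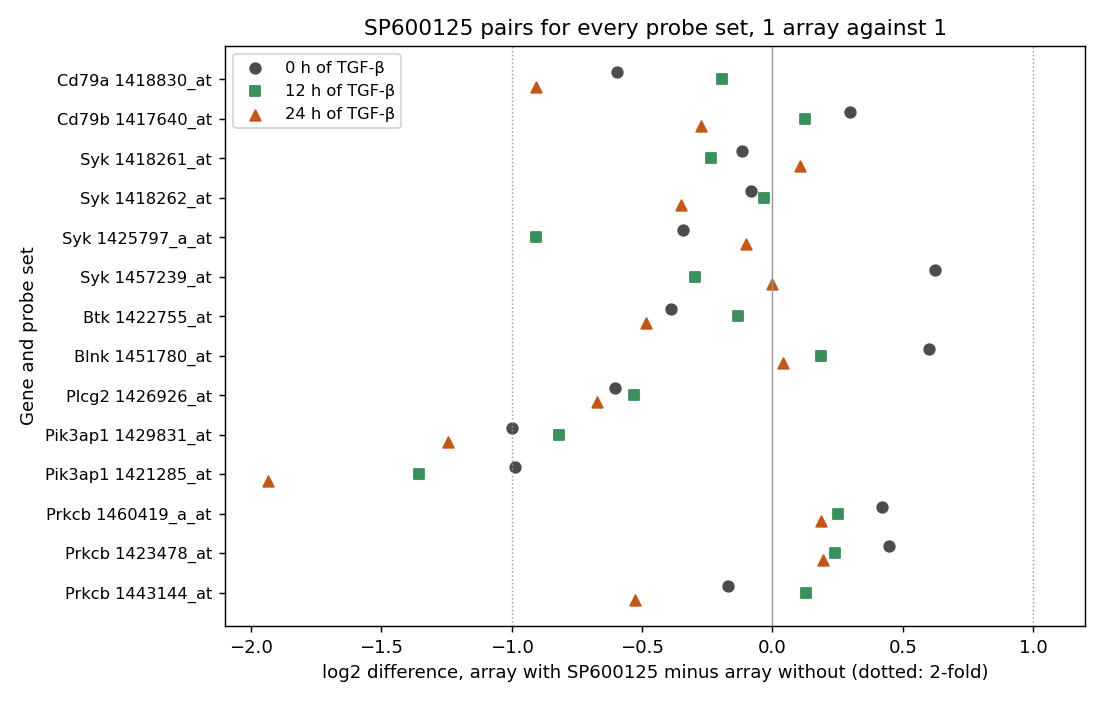
Log2 difference between the array with SP600125 and the array without it (x axis) for all 14 probe sets (y axis), at 0 h (circles), 12 h (squares) and 24 h (triangles) of TGF-β, 1 array against 1 with no error bar; dotted lines mark 2-fold. Both Pik3ap1 probe sets lie at −0.82 or further left at every time, down to −1.93, and the 2 brighter Prkcb probe sets lie right of 0 at every time.

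TGF-β raised Pik3ap1 at both times and Plcg2 at 12 h, lowered Blnk at 12 h and raised Prkcb at 24 h. Over both drug settings Pik3ap1 rose by 0.83 ± 0.12 after 12 h and 0.77 ± 0.12 after 24 h. Plcg2 rose by 0.49 ± 0.095 at 12 h, and Blnk fell by 0.73 ± 0.14 at 12 h. Prkcb rose by 0.35 ± 0.099 at 24 h. At 12 h, 2 of the 8 genes rose and 1 fell, where 4.97% of all genes were called, 2.60% higher and 2.37% lower. At 24 h, 2 rose and 0 fell, where 16.6% of all genes were called, 9.07% higher and 7.50% lower. The median effect was 0.25 at 12 h and 0.32 at 24 h over the 8 genes, against 0.022 and 0.066 over all genes. Median scaling turned the calls over all genes from 305 up and 278 down to 228 and 439 at 12 h, and from 1064 up and 880 down to 679 and 1329 at 24 h.

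For Pik3ap1 each array with TGF-β was above the unstimulated array of the same drug setting. Its signal went from 3992.6 to 6658.2 and 7396.5 without the drug, 1.67-fold and 1.85-fold higher, and from 1996.2 to 3780.8 and 3124.6 with it, 1.89-fold and 1.57-fold higher. With both agents it was thus below untreated cells at either time. The limma adjusted p was 0.0135 at 12 h and 0.00673 at 24 h, higher in 2 of 2 pairs each. Averaged over its 2 probe sets Pik3ap1 had effects of 0.92 and 0.45, with adjusted p of 0.0827 and 0.166. Without the array of high 18S signal the 24 h effect was 0.94. The 12 h effect of 0.83 cannot change, as no 24 h array enters it, and its limma adjusted p was then 0.143.

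Plcg2 was 1.37-fold higher at 12 h without the drug and 1.44-fold higher with it. At 24 h the ratios were 1.25 and 1.19, and the effect of 0.28 ± 0.095 had a limma adjusted p of 0.0818. At 12 h the limma adjusted p was 0.0301, and 0.0574 after median scaling. Leaving out the array of high 18S signal cannot change the 12 h effect of 0.49, as no 24 h array enters it. Its limma adjusted p was then 0.152.

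Blnk was the only one of the 8 genes called lower with TGF-β. Its signals of 2853.0 and 3244.8 at 12 h were the lowest of the 6 arrays. The pair with the drug at 12 h also differs in drug time, 12 h against 24 h. Blnk was 1.43-fold lower without the drug and 1.91-fold lower with it at 12 h, with a limma adjusted p of 0.0301. At 24 h it was 2.19% and 33.5% lower, and the effect of −0.31 ± 0.14 had a limma adjusted p of 0.178. Without the drug the 24 h signal of 3998.1 was close to the untreated 4087.7. Without the array of SP600125 alone, which had the highest Blnk signal, the 12 h effect was −0.48 with a limma adjusted p of 0.178. Leaving out the array of high 18S signal cannot change the 12 h effect of −0.73, as no 24 h array enters it. Its limma adjusted p was then 0.165.

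Prkcb at 24 h was 1.38-fold higher without the drug and 1.17-fold higher with it, while at 12 h the ratios were 1.05 and 0.94. The limma adjusted p at 24 h was 0.049, and it was 0.234 after median scaling and 0.0805 with a floor at the 25th percentile. Averaged over its 3 probe sets the Prkcb effect was 0.13, with an adjusted p of 0.475. Without the array of high 18S signal the effect was 0.42 with an adjusted p of 0.178. Median scaling moves the 24 h effect by 0.13 on the log2 scale, and the 12 h and SP600125 effects by 0.078 and 0.081.

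Cd79a and Btk had positive effects at both times and did not pass. For Cd79a they were 0.32 ± 0.16 at 12 h and 0.54 ± 0.16 at 24 h, the latter with a limma adjusted p of 0.0584. It passed at 24 h under quantile normalization, at 0.0453, and with log2(signal + 16), at 0.0297. For Btk they were 0.38 ± 0.14 and 0.43 ± 0.14, the latter with a limma adjusted p of 0.0724. In both genes all arrays with TGF-β were above the unstimulated array of their drug setting. Cd79b had effects of −0.0038 ± 0.14 and 0.22 ± 0.14, and Syk 0.18 ± 0.20 and 0.19 ± 0.20.

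**Figure D3:**
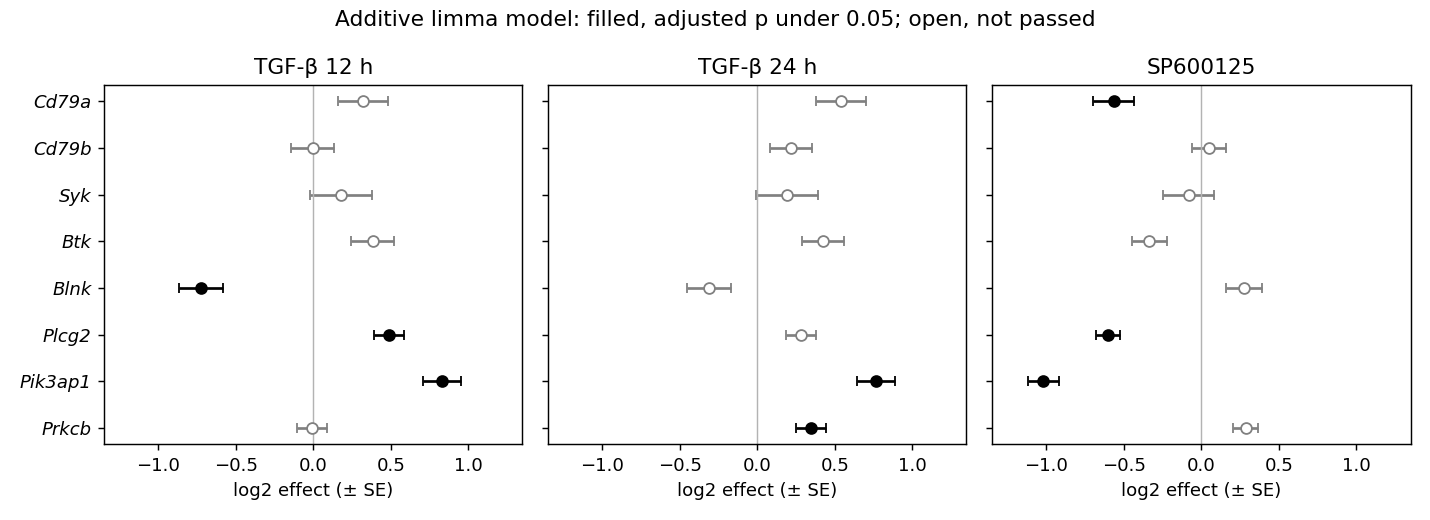
Log2 effects of 12 h of TGF-β, 24 h of TGF-β and SP600125 (x axes) for the 8 genes (y axis) in the additive limma model over 6 arrays; bars are standard errors, filled points have a Benjamini-Hochberg adjusted p under 0.05 and open points do not. Pik3ap1 is filled in all 3 panels, at 0.83, 0.77 and −1.02, and Blnk at 12 h is the only filled point left of 0 in the TGF-β panels.

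Whether the TGF-β change differed with the drug was asked in a limma model of TGF-β by SP600125, with both times pooled as 1 stimulated state. It called 0 of the 8 genes, and 0 of 11731 genes overall (0.00%), with 315 genes and 0 of the 8 at an unadjusted p under 0.05. For Pik3ap1 the interaction was −0.030 ± 0.25, with a 95% interval from −0.69 to 0.63, and for Plcg2 0.00066 ± 0.25, from −0.65 to 0.65. Any difference within these intervals is compatible with these arrays, and the intervals are not detection limits. In the test on simulated data this model called 28 of 100 interactions of 1 on the log2 scale and 81 of 100 of 2. The largest estimates were for Blnk, −0.49 ± 0.38, and Cd79b, −0.37 ± 0.29. A time effect counts as error in this model, and the time on SP600125 also differs between its arrays.

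By a 2-fold rule for single pairs, as in the study's design text, Pik3ap1 was past the threshold in 2 of the 7 pairs and the other 7 genes in 0. It was 2.00-fold lower with SP600125 in unstimulated cells, just inside the threshold, and 2.37-fold lower at 24 h of TGF-β. Of all genes, 1.29% and 1.99% were at least 2-fold lower in these pairs, and 3.15% and 3.16% at least 2-fold higher. In the pair at 12 h of TGF-β the shares were 1.13% lower and 1.80% higher. Just outside the threshold were Blnk at 12 h with the drug, 1.91-fold lower, Pik3ap1 at 12 h with the drug, 1.89-fold higher, and Cd79a with the drug at 24 h of TGF-β, 1.88-fold lower. At its brightest probe set, 0 of the 8 genes met the study's criterion of a 2-fold induction by TGF-β, which 3.26% of all genes did after 12 h and 5.51% after 24 h, while 1.44% and 1.91% were past 2-fold in the other direction. Between the arrays with the drug, 2.47% of genes after 12 h and 4.59% after 24 h were past 2-fold higher, and 1.30% and 2.02% past 2-fold lower.

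Syk, Pik3ap1 and Prkcb had more than 1 probe set, and these did not all move alike. The second probe set of Pik3ap1 (1421285_at) had signals of 481.1, 1104.6 and 731.1 without the drug and 242.9, 431.7 and 191.5 with it. When every probe set was fitted on its own, it fell with SP600125 by 1.42 ± 0.22 with a limma adjusted p of 0.00991, like the brighter one, while its TGF-β effects of 1.01 ± 0.26 and 0.13 ± 0.26 did not pass. It was 2.30-fold higher at 12 h without the drug. At 24 h it was 1.52-fold higher without and 1.27-fold lower with the drug, so its pairs at 24 h had opposite directions.

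The brighter Prkcb probe sets (1460419_a_at and 1423478_at) had drug effects of 0.29 and 0.29 and 24 h effects of 0.35 and 0.35 in that fit. None of these passed, with limma adjusted p at 24 h of 0.0612 and 0.0647. The dim one (1443144_at) lay between 140.9 and 219.9 and had −0.19 and −0.29. For Syk, the probe sets 1418261_at and 1418262_at were nearly flat, from 431.9 to 552.6 and from 328.4 to 419.2. Another, 1425797_a_at, went from 210.2 in untreated cells and 165.7 with SP600125 to 178.4 and 95.1 at 12 h and 91.8 and 85.6 at 24 h. In the fit of all probe sets it fell by 1.07 ± 0.28 at 24 h with a limma adjusted p of 0.0412. The last, 1457239_at, was above the floor on 2 of 6 arrays. Averaged over its probe sets the Syk effects turned to −0.13 at 12 h and −0.33 at 24 h and did not pass.

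Other genes of the pathway were read from 7 lists that follow the signal from immunoglobulin to calcium, with 1 list of inhibitors. With SP600125, of 16 coreceptors and activating adaptors 5 fell and 0 rose, of 6 immunoglobulin and surrogate chain genes 2 fell and 0 rose, and of 22 inhibitors of the receptor 7 fell and 0 rose, where 3.69% of all genes fell. Their median effects were −0.33, −0.11 and −0.33. The 2 that fell in the immunoglobulin and surrogate chain list were Jchain and Vpreb3. The heavy chain genes Ighm, Ighg3 and Igha had effects of 0.19, 0.45 and −0.41, and Igll1 0.36, and none of these passed. Of the 15 genes of the phosphoinositide 3-kinase branch 2 rose and 1 fell, of 17 in the protein kinase C and Ras branch 1 rose and 0 fell, of 18 in the calcium and NFAT branch 2 rose and 0 fell, and of 7 Src and Tec family kinases 1 rose and 1 fell. With probe sets averaged per gene 1 coreceptor or adaptor gene, 1 gene of the immunoglobulin and surrogate chain list and 3 inhibitors fell. Without the array of high 18S signal 0 genes of any list, and 0 of all genes, were called in limma (1884 at an unadjusted p under 0.05). The counts were the same without the 24 h TGF-β array lacking the drug, as either omission removes the 24 h drug pair.

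Cr2, a complement receptor of B cells, fell by 0.99 ± 0.15 with the drug, with a limma adjusted p of 0.00988 and lower in 3 of 3 pairs. Its signals were 665.6, 860.6 and 880.8 without and 328.3, 477.4 and 408.0 with SP600125. Vpreb3, a gene of the pre-B cell receptor family, fell by 1.13 ± 0.20, from 337.1, 377.9 and 262.7 to 145.8, 188.5 and 116.4. Fcgr2b, the inhibitory Fc receptor, fell by 1.07 ± 0.10. The Src family kinase Fyn rose by 0.94 ± 0.19, from 3365.7 to 10188.0 in unstimulated cells, from 3546.6 to 4892.0 at 12 h and from 4344.2 to 7377.5 at 24 h. Without the untreated array or the array of SP600125 alone the Fyn effect was 0.61. Plekha1, which binds lipids made by phosphoinositide 3-kinase, rose by 1.01 ± 0.16, or by 0.48 and without passing with its probe sets averaged.

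At 24 h of TGF-β more genes of these lists rose than fell. Of the coreceptors and adaptors 5 rose and 1 fell, of the protein kinase C and Ras branch 4 rose and 1 fell, of the inhibitors 4 rose and 0 fell, of the calcium and NFAT branch 3 rose and 0 fell, of the phosphoinositide 3-kinase branch 2 rose and 1 fell, of the Src and Tec family kinases 1 rose and 0 fell, and of the immunoglobulin chains 0 did either. Over all genes 9.07% rose and 7.50% fell. After median scaling the coreceptors and adaptors had 1 gene called higher and 2 lower and the protein kinase C and Ras branch 3 and 3. With any 1 array left out, calls at 24 h ranged from 0 to 2 in the protein kinase C and Ras branch, from 0 to 1 in the coreceptors and adaptors, the kinases and the phosphoinositide 3-kinase branch, and were 0 in the other 3 lists. At 12 h, where 2.60% of all genes rose and 2.37% fell, 2 rose among the coreceptors and adaptors and 2 among the inhibitors, 1 rose and 2 fell in the protein kinase C and Ras branch, 1 rose and 1 fell in the phosphoinositide 3-kinase branch, 1 rose in the calcium and NFAT branch and 0 were called in the others.

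Dgka, a kinase that removes diacylglycerol, rose by 1.61 ± 0.28 at 24 h, with a limma adjusted p of 0.00909 and higher in 2 of 2 pairs. Its signal went from 180.9 to 546.3 and 790.3 at 12 h and 24 h without the drug and from 364.0 to 567.5 and 777.1 with it. Inpp5d, the lipid phosphatase SHIP that opposes phosphoinositide 3-kinase, rose by 0.92 ± 0.14 at 24 h, Grb2, a Ras adaptor, by 0.85 ± 0.13, Bcl10, on the path to NF-κB, by 0.81 ± 0.11, Rasgrp3, an activator of Ras, by 0.79 ± 0.10, and the kinase Tec, related to Btk, by 0.76 ± 0.10. Bank1, a B cell scaffold protein that binds LYN, fell by 0.78 ± 0.14, and was also among the genes that fell with SP600125. Pik3cd, the catalytic subunit of phosphoinositide 3-kinase typical of leukocytes, fell by 1.42 ± 0.19 at its brightest probe set, but was at −0.095 with its probe sets averaged.

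**Figure D4:**
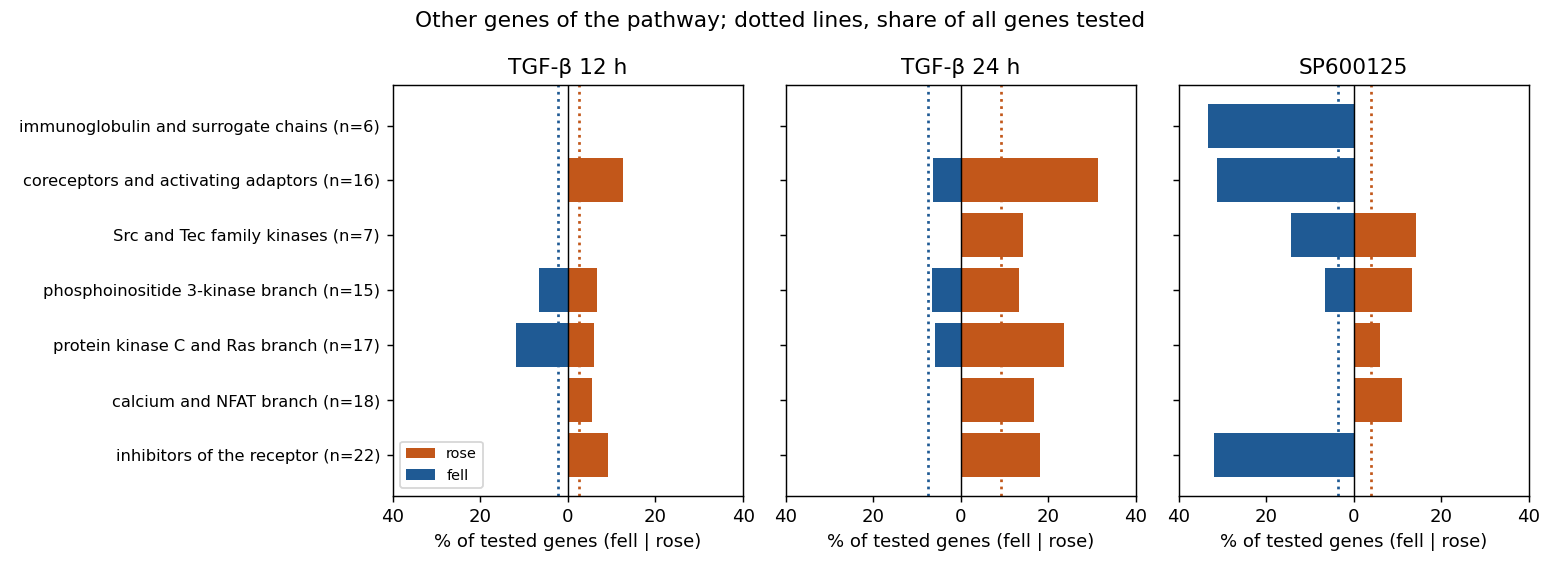
Share of tested genes in each pathway list (y axis, n tested in brackets) that rose (bars to the right) or fell (bars to the left), in percent, for 12 h and 24 h of TGF-β and SP600125 in limma; dotted lines give the same share over all 11731 genes. The bars for SP600125 reach furthest left in the immunoglobulin and surrogate chain, coreceptor and inhibitor lists, where 2 of 6, 5 of 16 and 7 of 22 genes fell. The 2 of the first list were Jchain and Vpreb3.

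The counterparts of these genes in T cells were dim in part. Of 10 found, 5 were above the floor on at least 2 arrays, and Cd3d, Cd3g, Cd247 and Prkcq were under it on all 6. Zap70, the relative of Syk, was above it on all 6 arrays, with signals from 300.8 to 434.3. So were Plcg1, from 141.5 to 355.3, and Tec, from 3762.4 to 8301.8. The Ighm probe set had 16632.4 to 21516.0 on the 6 arrays and an SP600125 effect of 0.19 ± 0.076 that did not pass; its name ends in _s_at, which marks probes shared between transcripts, so signal from other immunoglobulin genes cannot be told apart.

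Among the 8 genes, Pik3ap1, Plcg2, Btk and Cd79a shared a pattern over the 6 arrays. Pearson's r of the log2 signals was 0.98 for Pik3ap1 with Plcg2, 0.96 for Pik3ap1 with Btk, 0.96 for Cd79a with Btk, 0.93 for Cd79a with Pik3ap1, 0.89 for Btk with Plcg2 and 0.84 for Cd79a with Plcg2. Cd79a with Cd79b had 0.35, and Blnk had −0.79 with Plcg2. These are descriptions over 6 arrays that share their scaling and design, and many genes reach a high r with so few points. By the same measure over all 11731 genes, the gene most like Plcg2 was Tespa1 at 0.999, that most like Pik3ap1 was Zbtb32 at 0.999, and that most like Btk was Lamtor4 at 0.995. For Cd79a it was Hmgn3 at 0.988, for Blnk Snrnp25 at 0.994, for Prkcb Glyr1 at 0.996, for Syk Rhbdd2 at 0.984 and for Cd79b Dab2ip at 0.969. Between 8 genes, for Cd79b, and 123 genes, for Prkcb, had an r over 0.95.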

How the data were processed

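RNA of 6 A20 cultures was measured on Affymetrix whole-genome mouse arrays. The deposited values are linear intensities per probe set, made by the authors with GCOS 1.2, per the submitters' processing notes; sources used here do not give its settings. The 2% trimmed mean was 500.0 on every array. Groups came from the sample titles. Names came from the 34958 of 45101 probe sets with 1 symbol in the platform annotation; 932 had several and 9211 were not listed.

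From these, log2 values floored at 74.2 were fitted with limma 3.58.1 in R 4.3.3, with an intensity trend (prior degrees of freedom 5.97 in the additive model and 2.79 in the interaction model, each with 2 residual degrees of freedom), after a test on simulated data. Genes named from the 13 lists (143 of 173 genes found by symbol) are among the 3 with the smallest p in their list for SP600125 or 24 h of TGF-β; Ighm and Zap70 were named after their values were seen. The members, lists and motifs were chosen with earlier results of these data known. Alternatives were the mean of all probe sets, median scaling, quantile normalization, a floor at the 25th percentile, log2(signal + 16), no filter, no trend and each array left out. Fitting every probe set on its own was added after seeing the data.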

Additional observations from a re-analysis of the deposited data

Results flagged for a closer look

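Cd79b went opposite ways with TGF-β in the 2 drug settings. Without SP600125 it was 1.06-fold higher at 12 h and 1.42-fold higher at 24 h, and with it the log2 differences were −0.091 and −0.070. The limma interaction was −0.37 ± 0.29 with an unadjusted p of 0.262 and an adjusted p of 0.999, so the difference between the settings did not pass the test. Both changes with the drug are measured against the array of SP600125 alone, where Cd79b had 16567.2 against 13467.9 in untreated cells.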

How the results depend on the processing

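All 8 calls for the members kept their direction in each of the 104 alternative fits that gave them a value, but passed the threshold in only 33 of these. Many of these fits could not change the direction. Dropping the filter or the intensity trend alters only the p, and so does the lower floor for genes above it. Averaging leaves genes with 1 probe set as they were. Leaving out an array of 1 TGF-β time leaves the effect of the other time unchanged. In fits with 1 array left out, which have 1 residual degree of freedom, 2 of 48 passed, both for Pik3ap1 and SP600125, without the untreated array or the array of SP600125 alone. The number of members called then ranged from 0 to 0 for 12 h and for 24 h of TGF-β and from 0 to 1 for SP600125 (3 to 5, 1 to 6 and 3 to 5 members at an unadjusted p under 0.05); over all genes limma then called 0 to 44, 0 to 338 and 0 to 103. With no filter on dim genes or no intensity trend 0 members were called for any term (3 and 3 members at 12 h, 4 and 3 at 24 h and 4 and 4 for SP600125 at an unadjusted p under 0.05), and all genes called were 2 and 22, 3 and 562, and 0 (2301 at an unadjusted p under 0.05) and 92. With probe sets averaged 0 members were called at 12 h and 0 at 24 h (4 and 4 at an unadjusted p under 0.05), with 86 and 964 of all genes and 175 for SP600125. At 24 h, 1 member was called under median scaling and 1 with a floor at the 25th percentile. With log2(signal + 16), 997 genes were called at 12 h. With no filter the interaction called 406 genes and 0 members. The cause of these changes was not tested.

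Member values past 2-fold, 2 in all pairs, were 4 under median scaling, 1 under quantile normalization and 1 with log2(signal + 16). Signs turned only for values that were not called. With probe sets averaged Syk was at −0.13 at 12 h and −0.33 at 24 h and Prkcb at 0.0019 at 12 h, and under median scaling Cd79b was at −0.030 for SP600125. With arrays left out Cd79b ranged from −0.19 to 0.18 at 12 h, from −0.026 to 0.46 at 24 h and from −0.074 to 0.21 for SP600125, and Prkcb at 12 h from −0.11 to 0.091. The interaction could not be fitted without the untreated array or the array of SP600125 alone. No paired analysis was possible because the labels give no replicate numbers beyond 1 array per condition to use as a block; arrays with and without the drug were matched by TGF-β time in the additive model itself. Signals near the floor, such as 2 of the 4 Syk probe sets and the dim Prkcb one, limit what can be read from them.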
